A study of Mus musculus with 2 samples.

Results

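The genes described here belong to the integrated stress response and the unfolded protein response, a pair of linked programmes by which cells adjust protein synthesis and folding. They were taken by name as 32 of the 32285 genes listed for mouse splenic CD8+ T cells, and all 32 were found. By role they are 3 sensors and transducers of the endoplasmic reticulum (ER), 6 transcription factors of the integrated stress response, 7 Atf4 targets, 2 regulators of eIF2alpha dephosphorylation, 10 ER chaperones and folding enzymes, and 4 genes of ER-associated degradation. The genes were picked by name, but the choice was made with earlier results of these data known.

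The cells came from wild-type mice and were kept for 30 h either rested or on plate-bound peptide-MHC (pMHC, the peptide held by the class I molecule H-2Db). The peptide named M9C was given at 20, 2 and 0.2 pmol and the peptide named L6F at 80 and 20 pmol. In the deposited table the peptides differ in a phenylalanine against leucine residue and in a C-terminal methionine against cysteine residue. Each of the 6 cultures was marked with 1 hashtag antibody, a barcoded antibody that tags the culture of origin, and all were run in 1 lane of a droplet platform. There was 1 culture per condition, so no test between conditions is possible, and every interval given is a 95% interval of counting error only. The sources used here do not name the T cell receptor of the cells or the number of mice.

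In the integrated stress response, kinases that sense amino acid shortage, ER stress or viral RNA phosphorylate the initiation factor eIF2alpha. General translation drops, while the mRNA of the transcription factor Atf4 is translated better, and Atf4 then switches on genes of amino acid supply and redox balance. In the unfolded protein response, the ER membrane proteins Atf6, Ern1 (IRE1alpha) and Perk answer unfolded proteins in the ER by raising chaperones and degradation factors. Activated T cells grow and divide fast and load their ER with surface and secreted proteins, and Xbp1 and Atf4 are known in T cells for roles in effector differentiation and in amino acid metabolism.

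There were 755 rested cells with 918920 unique molecular identifiers (UMIs, counted mRNA molecules) and 1589 to 2477 cells per pMHC culture with 11376897 to 16014100 UMIs. The median rested cell held 1056.0 UMIs and the median stimulated cell 6050.0 to 7114.0. The filters on genes and mitochondrial share removed 52.3% of barcodes with the rested hashtag but 1.43 to 3.71% of those with a pMHC hashtag, and the rested values therefore come from the deeper cells of that culture. At a count of 0, the upper limit is 3.26 CPM (a gene's UMIs scaled to equal culture totals) for the rested culture, and 0.187 to 0.264 CPM for a pMHC culture. CD8 T cell markers (6 of 6 detected) summed to 3844 CPM in rested and 1999 to 2159 CPM in pMHC cells, and Cd4 had at most 1 UMI in any culture. Markers of several other cell types were higher in the rested culture. Erythroid markers summed to 199 CPM against 5.98 to 48.4, macrophage markers to 150 against 2.67 to 26.3 (of them Lyz2 146 in rested cells), gamma-delta T cell markers to 419 against 56.6 to 104 (of them Trdc 398 in rested cells), B cell markers to 26.1 against 5.34 to 9.14, and basophil or mast cell markers to 29.4 against 0.687 to 4.09.

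The proteins of these programmes bind short promoter motifs, and the promoters below are shown because the genes that carry the motifs behave unlike one another in the values that follow. RefSeq promoters on GRCm38.p6, each from 250 bases before to 50 bases after a gene start, covered 28 of the 32 genes. Atf6, Ppp1r15b, Hyou1 and Manf had no entry. The ER stress element, CCAAT then any 9 bases then CCACG, is the motif known to bind NF-Y with Atf6 or Xbp1. Searched on both strands, it occurred in 5 of the 28 genes (Calr, Canx, Pdia6, Creld2 and Syvn1) and in 0.119% of all 32851 promoters. Its ends are in capitals, on the strand of the gene, so that a match on the other strand reads CGTGG then ATTGG.
Calr, chr8:84847045-84847123, minus strand: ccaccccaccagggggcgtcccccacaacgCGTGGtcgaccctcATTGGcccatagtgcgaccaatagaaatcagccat
Canx, chr11:50325770-50325848, minus strand: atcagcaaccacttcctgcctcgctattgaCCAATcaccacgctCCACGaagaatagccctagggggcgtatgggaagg
Pdia6, chr12:17266461-17266539, plus strand: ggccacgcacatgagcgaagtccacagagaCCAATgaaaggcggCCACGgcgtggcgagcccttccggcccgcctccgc
Creld2, chr15:88819490-88819568, plus strand: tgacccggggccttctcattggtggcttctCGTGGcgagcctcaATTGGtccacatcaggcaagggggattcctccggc
Syvn1, chr19:6046502-6046580, plus strand: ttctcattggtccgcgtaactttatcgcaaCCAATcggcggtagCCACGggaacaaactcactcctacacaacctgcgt

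The other motif, TGATGCAA or TGATGAAA, is the core of the C/EBP-ATF element through which Atf4 acts with C/EBP partners. It occurred in 7 of the 28 genes (Atf3, Nupr1, Asns, Chac1, Slc7a11, Vldlr and Herpud1) and in 1.90% of all promoters. The motif is in capitals, again on the strand of the gene, where a match on the other strand reads TTGCATCA. Asns, Chac1 and Atf3 are shown because they had high ratios to rested cells, and Herpud1 because it did not.
Atf3, chr1:191183406-191183473, minus strand: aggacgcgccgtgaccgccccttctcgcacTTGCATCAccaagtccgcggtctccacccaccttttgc
Chac1, chr2:119351019-119351086, plus strand: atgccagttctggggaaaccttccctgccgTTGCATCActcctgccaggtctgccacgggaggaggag
Asns, chr6:7693195-7693262, minus strand: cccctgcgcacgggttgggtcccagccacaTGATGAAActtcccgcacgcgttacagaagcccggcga
Herpud1, chr8:94386287-94386354, plus strand: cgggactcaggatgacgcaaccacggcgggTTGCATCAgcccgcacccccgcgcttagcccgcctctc

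CCACG alone, which is also part of the ER stress element, was found for 23 of the 28 genes, against 32.8% of all promoters. For every motif here, a gene counted where any of its listed promoters matched, while the shares of all are of single promoters. The 2 are therefore unlike units. The Xbp1 motif TGACGTGG was in 0 of 28 (0.676% of all), and the cyclic AMP response element TGACGTCA in Ppp1r15a only (1.79% of all). A match describes these letters in this window and does not show binding.

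A gene counted as measured where it reached 10 CPM in either of the cultures compared, and as higher or lower than in rested cells where its ratio of CPM passed 2-fold and the interval excluded 1. By that rule the Atf4 targets Asns and Chac1 and the chaperone Sdf2l1 were higher in all 5 stimulated cultures, and Atf4 in 4 of the 5, with a ratio of 1.80 at 80 pmol L6F. Of the 10 ER chaperones and folding enzymes, 1 to 5 were higher, and of the 3 measured genes of ER-associated degradation none. With only 3 genes, a count of none is near the shares of all genes given next. At 20 pmol M9C, 10 of 25 measured genes were higher and 0 lower, where 16.9% of all measured genes were higher and 16.0% lower. At 2 pmol M9C 10 of 25 were higher (16.7% of all genes, 16.4% lower). The 0.2 pmol M9C culture had 9 of 26 (16.5%, and 16.3% lower), the 80 pmol L6F culture 5 of 25 (13.5%, and 13.3% lower), and the 20 pmol L6F culture 7 of 26 (14.3%, and 14.0% lower). In none of the 5 comparisons was a member 2-fold lower. All 5 share the rested culture and so are not independent. A lower CPM of a gene can come from fewer cells that use it or from less of its RNA per cell, which these sums cannot tell apart. Leaving out cells with 2 or more UMIs of other cells' markers, 10, 11, 10, 6 and 8 members were higher in the same order of cultures. These counts do depend on which rested cells are used. With 1000 or more genes per cell, 47 rested cells remained and 1, 1, 2, 0 and 1 members were higher, where 3.03 to 4.46% of all genes were. HTODemux hashtag calls gave 4, 6, 5, 3 and 5, where 9.98 to 12.9% of all genes were higher. Several of these counts, such as 1 of 26 and 4 of 26 at 20 pmol M9C, are near the background.

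**Figure D1:**
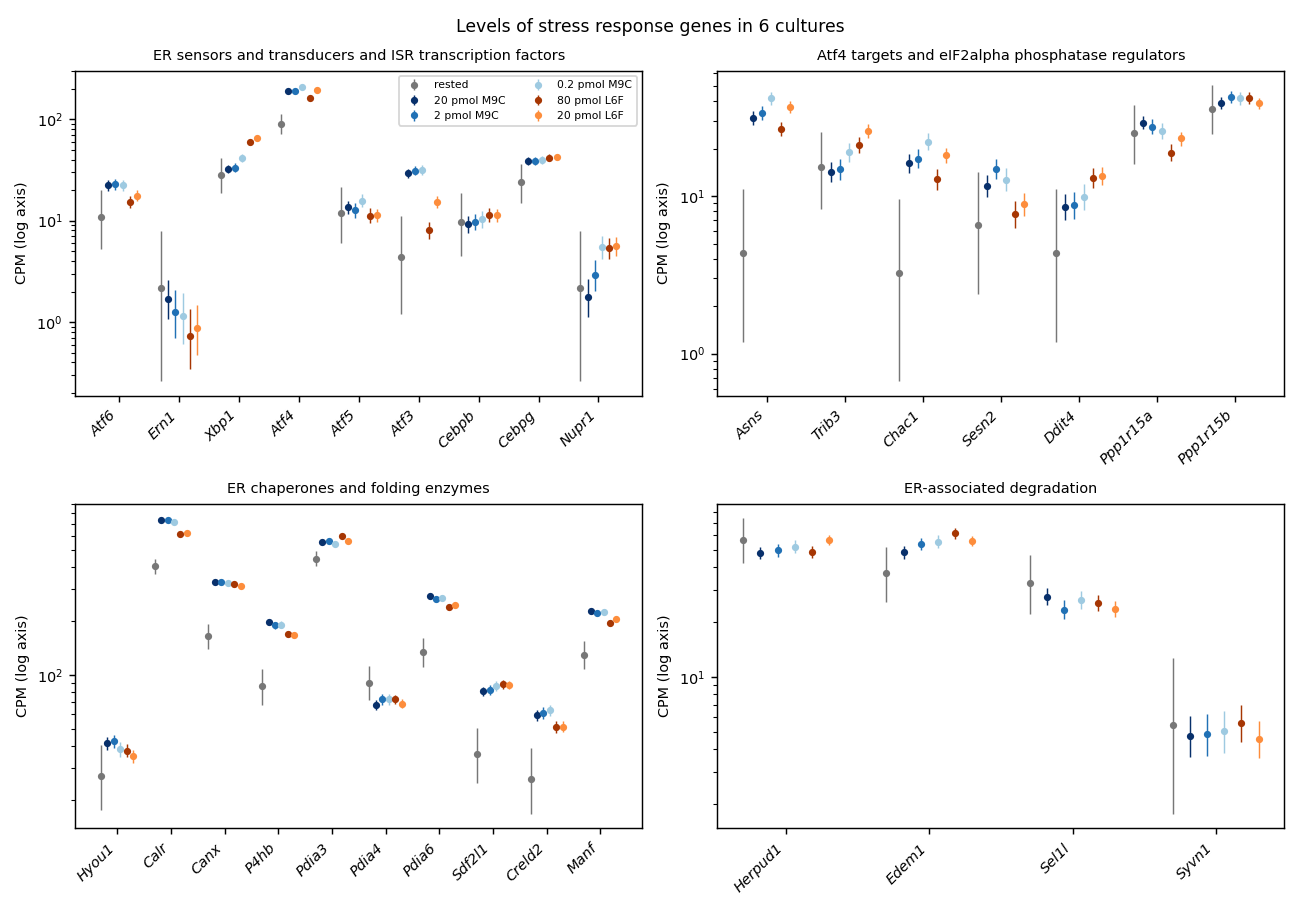
Level of 30 genes in CPM (log axis) in the 6 cultures, with 95% Poisson counting intervals, in 4 panels by role. Slc7a11 and Vldlr, with 0 UMIs in rested cells, are not drawn. Grey points are rested cells, blue points M9C and orange points L6F. Xbp1 is higher in both L6F cultures than in the 3 M9C cultures, Atf3 lower, and rested cells lie below the others for most ER chaperones.

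Among the sensors and transducers, Atf6 was highest in M9C and Xbp1 in L6F cells. Atf6, a membrane-bound factor that is cut and sent to the nucleus when the ER is stressed, stood at 10.9 CPM in rested cells, 22.2, 22.9 and 22.2 CPM with 20, 2 and 0.2 pmol M9C, and 15.2 and 17.6 CPM with 80 and 20 pmol L6F. Its rested level rests on 10 UMIs, and its ratio at 20 pmol M9C was 2.04 (1.09 to 4.30). With 1000 or more genes per cell that ratio turned to -0.31 on the log2 scale.

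Xbp1 encodes the factor whose mRNA is spliced by Ern1 into its active form. These counts are per gene and do not separate the spliced from the unspliced form. It stood at 28.3 CPM in rested cells, 32.3, 33.2 and 41.2 CPM with 20, 2 and 0.2 pmol M9C, and 59.8 and 65.7 CPM with 80 and 20 pmol L6F. Both L6F cultures were thus above the 3 M9C cultures, and their ratios to rested cells were 2.11 (1.43 to 3.26) and 2.32 (1.58 to 3.57), against 1.14 (0.768 to 1.77) at 20 pmol M9C. With 1000 or more genes per cell the L6F ratios turned to -0.34 and -0.20 on the log2 scale. Ern1 itself, the kinase and RNase that splices Xbp1, had 2 UMIs in rested cells and 0.725 to 1.70 CPM elsewhere, too few for a ratio.

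Of the transcription factors of the integrated stress response, Atf4 and Atf3 were 2-fold higher than in rested cells in every stimulated culture but that at 80 pmol L6F. Atf4, the central factor, stood at 90.3 CPM in rested cells, 188, 191 and 206 CPM with 20, 2 and 0.2 pmol M9C, and 162 and 192 CPM with 80 and 20 pmol L6F. Its ratio at 20 pmol M9C was 2.08 (1.67 to 2.63) and at 80 pmol L6F 1.80 (1.44 to 2.27). All 5 stimulated cultures were above rested cells, also in every alternative run, from 0.70 on the log2 scale upward. Atf4 is controlled largely at translation, which mRNA counts do not show.

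Atf3, an early stress-induced repressor, had 4 UMIs in rested cells (4.35 CPM, 1.19 to 11.1), and 29.2, 31.0 and 31.6 CPM at 20, 2 and 0.2 pmol M9C. In L6F cells it stood at 8.05 CPM at 80 pmol and 15.2 CPM at 20 pmol. The M9C cultures were above both L6F cultures, and the 80 pmol L6F ratio to rested cells, 1.85 (0.702 to 6.91), did not exclude equality. Cebpg, a dimer partner of Atf4, stood at 23.9 CPM in rested and 38.6 to 42.5 CPM in stimulated cells, with a ratio of 1.61 (1.05 to 2.59) at 20 pmol M9C. Atf5, a relative of Atf4 that guards mitochondrial protein quality, ranged from 11.2 to 15.7 CPM and Cebpb, a C/EBP factor of inflammation, from 9.21 to 11.4 CPM over all 6 cultures, with intervals that overlap those of rested cells. Nupr1, a small stress-induced chromatin protein, stayed below 10 CPM in every culture, at 1.78 to 5.56 CPM.

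Among the Atf4 targets, Asns and Chac1 had the highest ratios to rested cells. Asns, asparagine synthetase, had 4 UMIs in rested cells (4.35 CPM) and 31.4, 33.6 and 41.8 CPM at 20, 2 and 0.2 pmol M9C, with 26.6 and 36.8 CPM at 80 and 20 pmol L6F. The ratio at 20 pmol M9C was 7.22 (2.80 to 26.6). It depends on the hashtag calls, since with HTODemux, which assigns 850 rested cells, the log2 ratios of Asns were 0.27, 0.36, 0.65, 0.00 and 0.51 at 20, 2 and 0.2 pmol M9C and 80 and 20 pmol L6F.

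Chac1, an enzyme that breaks down glutathione, had 3 UMIs in rested cells (3.26 CPM) and 12.8 to 22.2 CPM elsewhere, with a ratio of 4.96 (1.67 to 24.2) at 20 pmol M9C and a log2 ratio of 2.25 there with HTODemux. Ddit4 (REDD1), an inhibitor of the growth kinase mTORC1, stood at 4.35 CPM in rested cells, 8.52, 8.76 and 9.93 CPM at 20, 2 and 0.2 pmol M9C, and 13.1 and 13.5 CPM at 80 and 20 pmol L6F, where its ratios were 3.0 (1.15 to 11.1) and 3.10 (1.19 to 11.5). Trib3, a pseudokinase that dampens Atf4, stood at 15.2 CPM in rested cells and 14.2, 14.8 and 19.0 CPM at 20, 2 and 0.2 pmol M9C, against 21.0 and 25.9 CPM at 80 and 20 pmol L6F. Sesn2, another brake on mTORC1, stood at 6.53 CPM in rested cells and 7.69 to 14.9 CPM elsewhere, with a ratio of 2.28 (1.02 to 6.28) at 2 pmol M9C. Slc7a11, the cystine transporter, had 0 UMIs in rested cells and 4 to 10 UMIs in the stimulated cultures. Vldlr, a lipoprotein receptor, had 1 UMI in each L6F culture and 0 elsewhere, so both were at the limit of detection.

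The regulators of eIF2alpha dephosphorylation lay near their rested level. Ppp1r15a (GADD34), the stress-induced subunit that lets the phosphatase end the response, stood at 25.0 CPM in rested cells, 29.3, 27.6 and 25.8 CPM at 20, 2 and 0.2 pmol M9C, and 18.9 and 23.2 CPM at 80 and 20 pmol L6F. Ppp1r15b, its constitutive counterpart, stood at 35.9 CPM in rested and 38.7 to 42.8 CPM in stimulated cells. All of their ratios to rested cells had intervals that included 1.

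Of the ER chaperones and folding enzymes, 9 of 10 were above rested cells in all 5 comparisons. Of all measured genes, 52.7 to 53.7% were above rested cells in each comparison. Not every interval of the 9 excluded 1, as for Hyou1 at 0.2 pmol M9C (1.41, 0.939 to 2.20). The median log2 ratio of the 10 was 0.94, 0.92 and 0.91 for the M9C doses from high to low. It was 0.72 and 0.77 for the L6F doses. For all measured genes it was 0.07 to 0.10. At 20 pmol M9C 5 of the 10 passed 2-fold (16.9% of all genes did), at 2 and 0.2 pmol 4, and in each L6F culture 1, Sdf2l1, against 13.5 and 14.3% of all genes. With HTODemux the median was 0.72 at 20 pmol M9C, and with 1000 or more genes per cell -0.07.

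Calr (calreticulin), a lectin chaperone that also serves the loading of class I molecules, stood at 404 CPM in rested cells, 735, 731 and 716 CPM at 20, 2 and 0.2 pmol M9C, and 614 and 620 CPM at 80 and 20 pmol L6F. Its ratio at 20 pmol M9C was 1.82 (1.64 to 2.03). Canx (calnexin), its membrane-bound relative, stood at 164 CPM in rested and 315 to 332 CPM in stimulated cells (2.01, 1.71 to 2.38, at 20 pmol M9C). Both carry the ER stress element shown above, as do Pdia6 and Creld2.

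Among the enzymes that form disulfide bonds, P4hb was at 86.0 CPM in rested and 166 to 198 CPM in stimulated cells (2.30, 1.84 to 2.92, at 20 pmol M9C), and Pdia6 at 134 against 238 to 277 CPM (2.07, 1.73 to 2.5). Pdia3, which works with calnexin and calreticulin, was at 447 against 541 to 597 CPM (1.23, 1.12 to 1.37). Pdia4 was the exception of the group, at 90.3 CPM in rested and 67.7 to 72.7 CPM in stimulated cells. Its ratio was 0.749 (0.598 to 0.95) at 20 pmol M9C. At 2 and 0.2 pmol M9C and 80 pmol L6F its interval included 1 (0.805, 0.642 to 1.02, at 2 pmol). Per cell Pdia4 was higher, at 11.0 UMIs per 100 rested and 44.5 to 52.0 per 100 stimulated cells. So were 90.7 to 91.8% of all measured genes, since stimulated cells held more UMIs. Sdf2l1, a partner of the ER Hsp70 system, stood at 35.9 against 80.8 to 88.3 CPM and passed 2-fold in all 5 comparisons (2.25, 1.59 to 3.29, at 20 pmol M9C). With 1000 or more genes per cell the log2 ratio of Pdia6 was -0.13 and that of Sdf2l1 -0.03 at 20 pmol M9C. Creld2, an ER protein with disulfide isomerase activity, stood at 26.1 against 51.1 to 63.3 CPM, Manf, a secreted ER stress factor, at 129 against 195 to 228 CPM, and Hyou1, a large ER Hsp70, at 27.2 against 35.0 to 42.5 CPM.

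None of the 3 measured genes of ER-associated degradation passed 2-fold in any of the 5 comparisons. Of all measured genes, 13.5 to 16.9% were 2-fold higher and 13.3 to 16.4% lower. With only 3 genes, a count of none is near that background and does not set this group apart. Herpud1, which gathers the degradation complex, stood at 56.6 CPM in rested and 47.8 to 56.5 CPM in stimulated cells. Its promoter holds the C/EBP-ATF core shown above. Edem1, which marks misfolded glycoproteins for removal, stood at 37.0 against 48.2 to 61.4 CPM, and its interval excluded 1 in 4 of the 5 comparisons, with ratios from 1.45 (1.03 to 2.12) at 2 pmol M9C to 1.66 (1.18 to 2.41) at 80 pmol L6F. Sel1l, the scaffold of the Hrd1 ligase, stood at 32.6 against 23.4 to 27.6 CPM, and Syvn1 (Hrd1 itself) at 5.44 against 4.56 to 5.59 CPM, below the level for a ratio.

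**Figure D2:**
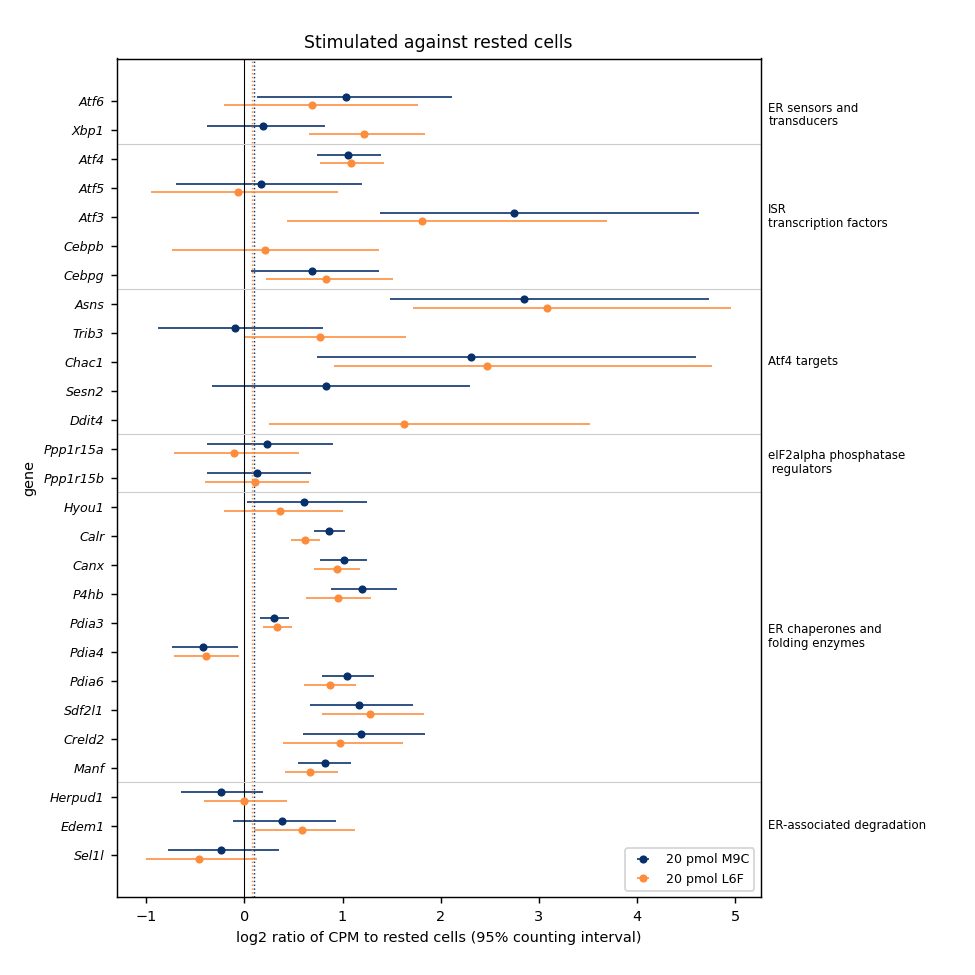
Log2 ratio of CPM to rested cells for each measured gene, by role, with 95% counting intervals. Dark blue is 20 pmol M9C and orange 20 pmol L6F, and dotted lines mark the median over all measured genes (0.10 and 0.08). Most ER chaperones lie near 1 with Pdia4 below 0, the interval of Xbp1 excludes 0 for L6F but not for M9C, and Atf3, Asns and Chac1, with 3 or 4 rested UMIs, have wide intervals.

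Other genes of these pathways, from lists that hold no member, gave a wider view. Of 35 measured genes of the integrated stress response, 18, 21 and 20 were 2-fold higher with 20, 2 and 0.2 pmol M9C. With 80 and 20 pmol L6F 17 and 20 were higher, and 1 or 2 were lower in each culture. Of all genes, 16.9, 16.7, 16.5, 13.5 and 14.3% were higher in the same order, and 13.3 to 16.4% lower. Neither these counts nor those of the other ER genes below were recomputed with other choices of rested cells, on which the member counts depend. The highest at 20 pmol M9C were Bcat1, which transaminates branched-chain amino acids (59.5 against 7.62 CPM, 7.82, 3.77 to 19.5), Mthfd2 of mitochondrial folate metabolism (314 against 65.3 CPM, 4.80, 3.72 to 6.31) and Psat1 of serine synthesis (187 against 42.4 CPM, 4.42, 3.22 to 6.23). At the other end was Eif2ak3, which encodes Perk, at a ratio of 0.356 (0.184 to 0.754). Sqstm1, an autophagy receptor, followed at 0.724 (0.555 to 0.961) and Map1lc3b, the LC3 gene of autophagosomes, at 0.829 (0.718 to 0.962).

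Of 52 other ER genes measured, 9, 10 and 9 were 2-fold higher with 20, 2 and 0.2 pmol M9C, and 4 in each L6F culture, while at most 1 was lower. As shares, the M9C counts are near the background of all genes and the L6F counts below it. The highest by interval were Hspa5 (BiP), the main ER Hsp70 (1096 against 429 CPM, 2.56, 2.31 to 2.83), Hsp90b1 (GRP94, 758 against 359 CPM, 2.11, 1.89 to 2.36) and Prkcsh of glycan trimming (2.38, 1.84 to 3.12). The lowest were Os9, a lectin of ER-associated degradation (0.504, 0.418 to 0.612), the ER-bound factor Creb3 (0.539, 0.370 to 0.812) and Sec62 of the translocon (0.663, 0.527 to 0.843).

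The doses of each peptide address how the amount of antigen bears on these genes. Asns, Chac1, Trib3 and Atf4 were lower at the higher dose of both peptides, by less than 1.5-fold, while the ER chaperones had a median near equality. A member counted as different between stimulated cultures where the ratio passed 1.5-fold. None of those that reached 10 CPM did so among the M9C doses. Below that level, Nupr1 had 23, 35 and 62 UMIs with 20, 2 and 0.2 pmol M9C, a ratio of 0.327 (0.193 to 0.535) for the highest against the lowest dose and 0.536 (0.344 to 0.824) for 2 against 0.2 pmol. The background shares, higher then lower, were 0.230% and 0.0864% for 20 against 2 pmol, 0.302% and 0.316% for 2 against 0.2 pmol, and 0.832% and 0.488% for 20 against 0.2 pmol. With a smaller limit, a ratio of 5 to 4, 4 of 26 members were lower at 20 than at 0.2 pmol (Xbp1, Asns, Trib3 and Chac1) and 0 higher, against 1.95% of all genes lower and 3.23% higher.

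Asns at 20 pmol was 0.753 of its level at 0.2 pmol M9C (0.658 to 0.861), Chac1 0.730 (0.605 to 0.881), Trib3 0.750 (0.613 to 0.918) and Xbp1 0.783 (0.685 to 0.895). From 0.2 to 2 pmol Asns had a ratio of 0.806 (0.704 to 0.922), and from 2 to 20 pmol its interval included 1 (0.935, 0.812 to 1.08), so the neighbours 2 and 20 pmol do not differ beyond counting error. Atf4 itself was 0.913 (0.863 to 0.967) at 20 against 0.2 pmol. Calr was 1.03 (0.997 to 1.06) and so did not differ beyond counting error.

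For L6F, Atf3 was the only member past 1.5-fold, at 8.05 CPM at 80 pmol against 15.2 CPM at 20 pmol (0.528, 0.418 to 0.664), where 0.0575% of all genes were lower and 0.0863% higher. Past a ratio of 5 to 4, 3 of 26 were lower (Atf3, Asns and Chac1) and 0 higher, against 1.01% and 0.963% of all genes. Asns was 0.723 (0.633 to 0.825) and Chac1 0.709 (0.585 to 0.858) of the 20 pmol level, Trib3 0.812 (0.696 to 0.945), Atf4 0.846 (0.801 to 0.894) and Ppp1r15a 0.814 (0.692 to 0.956). Pdia3 was the other way, at 1.06 (1.03 to 1.09).

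The 2 dose comparisons share no culture, so they can be set side by side. The Atf4 targets measured in both, Asns, Trib3 and Chac1, were below equality at the higher dose of both peptides, as were Sesn2, measured for M9C alone, and Ddit4, measured for L6F alone. The medians of the 4 targets of each were -0.41 for M9C and -0.38 for L6F on the log2 scale. All 5 measured transcription factors were also below equality (medians -0.13 and -0.03). For Atf5, Cebpb and Cebpg among them, the CPM intervals of the doses overlapped for both peptides. The 10 ER chaperones had a median of 0.02 in both, and the medians of all genes were 0.00 to 2 decimals. Of 25 members measured in both, 11 were below equality in both, against 27.2% of all genes. None of the 10 chaperones was among them. Of 33 other integrated stress response genes, 23 (69.7%) were below equality in both, and of 51 other ER genes 12 (23.5%). Differences of this size were under 1.5-fold and rest on 1 culture per dose, and whether another culture at these doses would show them was not tested. In cells thinned to 1000 UMIs the M9C median of the Atf4 targets was 0.02 over 5 measured genes, and in cells of 1000 to 3000 UMIs the L6F median was 0.47. The median cell held 6943.0 UMIs with 20 and 7114.0 with 0.2 pmol M9C, and 6050.0 with 80 against 6354.0 with 20 pmol L6F, so the higher dose had the shallower cells in both. The part of depth in these differences was not tested further.

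**Figure D3:**
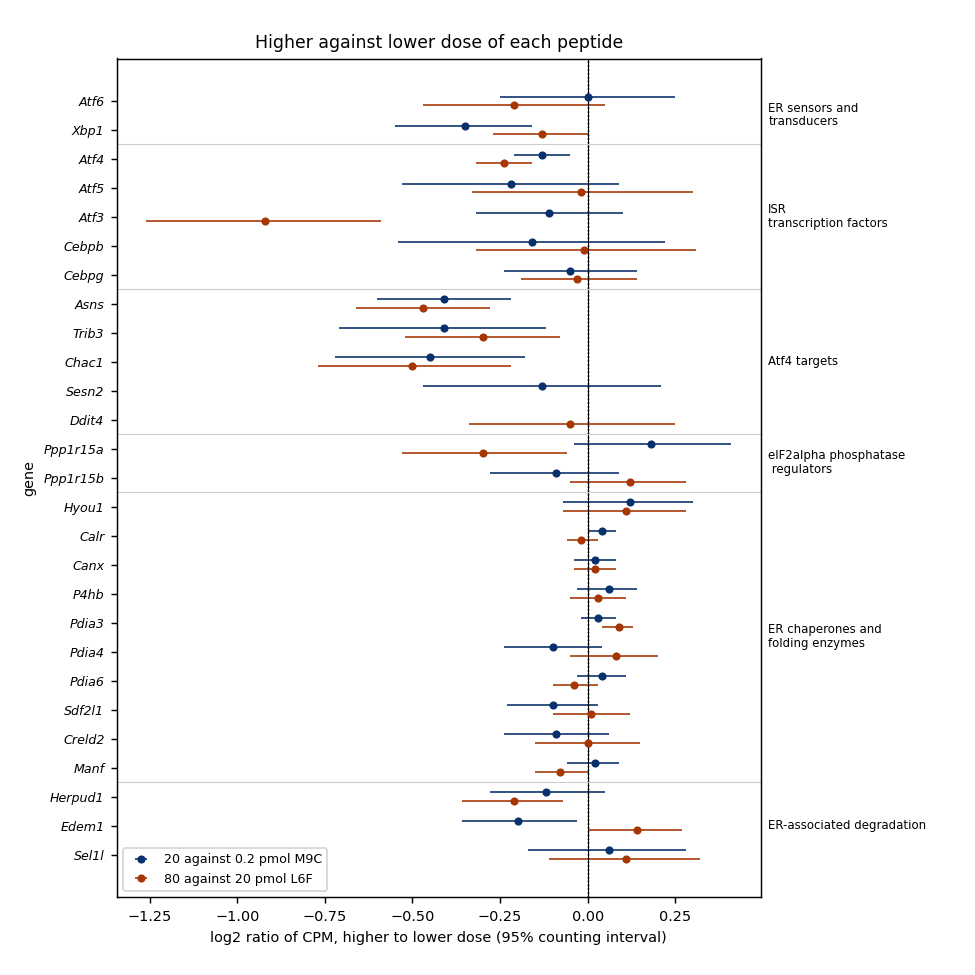
Log2 ratio of CPM at the higher against the lower dose of each peptide, with 95% counting intervals, by role (blue, 20 against 0.2 pmol M9C; orange, 80 against 20 pmol L6F). Dotted lines at about 0 are medians over all genes. Asns, Trib3 and Chac1 lie below 0 for both peptides, the ER chaperones have a median of 0.02 for both, and Atf3 is apart for L6F.

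At 20 pmol, the only dose given for both peptides, 1 of 27 measured members was 1.5-fold higher in M9C than in L6F cells and 3 were lower, against 2.27% and 2.57% of all genes. Atf3 was higher, at 29.2 against 15.2 CPM (1.92, 1.63 to 2.26). Xbp1 was lower, at 32.3 against 65.7 CPM (0.491, 0.438 to 0.551), Trib3 at 14.2 against 25.9 CPM (0.550, 0.460 to 0.655) and Ddit4 at 8.52 against 13.5 CPM (0.631, 0.497 to 0.798). Nupr1, below 10 CPM, had a ratio of 0.320 (0.193 to 0.511). Atf4 did not follow them, at 188 against 192 CPM (0.981, 0.930 to 1.03). Past a ratio of 5 to 4, Atf6 (1.26, 1.07 to 1.49), Sesn2 (1.31, 1.03 to 1.66) and Ppp1r15a (1.27, 1.09 to 1.47) joined Atf3 as higher, so that 4 were higher and 3 lower, against 6.86% and 7.40% of all genes.

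The ER chaperones were slightly higher with M9C, with 7 of 10 above equality and a median log2 ratio of 0.16, where 54.1% of all genes were above equality and the median was 0.02. Calr had a ratio of 1.19 (1.15 to 1.22), P4hb 1.19 (1.13 to 1.26), Hyou1 1.18 (1.05 to 1.34) and Pdia6 1.13 (1.08 to 1.18), while Pdia3 was level at 0.983 (0.953 to 1.01). Herpud1 and Edem1 of ER-associated degradation went the other way, at 0.846 (0.763 to 0.938) and 0.864 (0.779 to 0.958). Outside the members, Hspa5 was 1.35 (1.31 to 1.38) and Hsp90b1 1.20 (1.17 to 1.23), at 1096 against 815 and 758 against 633 CPM.

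Over all doses, 12 of 27 members had the 3 M9C cultures all above both L6F cultures (31.0% of all genes did), and 8 of 27 had them all below (26.2%). Above were Atf6, Atf5, Atf3, Sesn2, Ppp1r15a, Hyou1, Calr, Canx, P4hb, Pdia6, Creld2 and Manf, so 7 of the 10 chaperones. Below were Xbp1, Cebpb, Cebpg, Trib3, Ddit4, Pdia3, Sdf2l1 and Edem1. Among other ER genes 28 of 51 were above and 7 below, and among other integrated stress response genes 9 of 33 and 8. The doses of the peptides differ apart from 20 pmol, so this order, chosen after seeing the data, is a description of the 5 cultures.

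Other measures moved with the peptide too. Gamma-delta markers summed to 56.6 to 59.8 CPM in M9C and 96.2 to 104 CPM in L6F cells (4 of 4 detected in each), NK markers to 13.2 to 14.3 and up to 21.1 CPM, macrophage markers to 2.67 to 11.3 and 16.7 to 26.3 CPM, and B cell markers to 5.34 to 7.12 and 8.87 to 9.14 CPM. Without cells that held 2 or more UMIs of such markers the log2 ratios at 20 pmol were -0.95 for Xbp1, 0.84 for Atf3, -0.81 for Trib3 and -0.60 for Ddit4, against -1.02, 0.94, -0.86 and -0.66 with them. In cells of 1000 to 3000 UMIs (112 M9C and 209 L6F cells at 20 pmol), the ratios of Xbp1, Trib3 and Ddit4 were -0.45, -2.67 and -0.08 on the log2 scale and that of Atf3 1.21, and no member passed 1.5-fold with an interval that excluded 1.

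**Figure D4:**
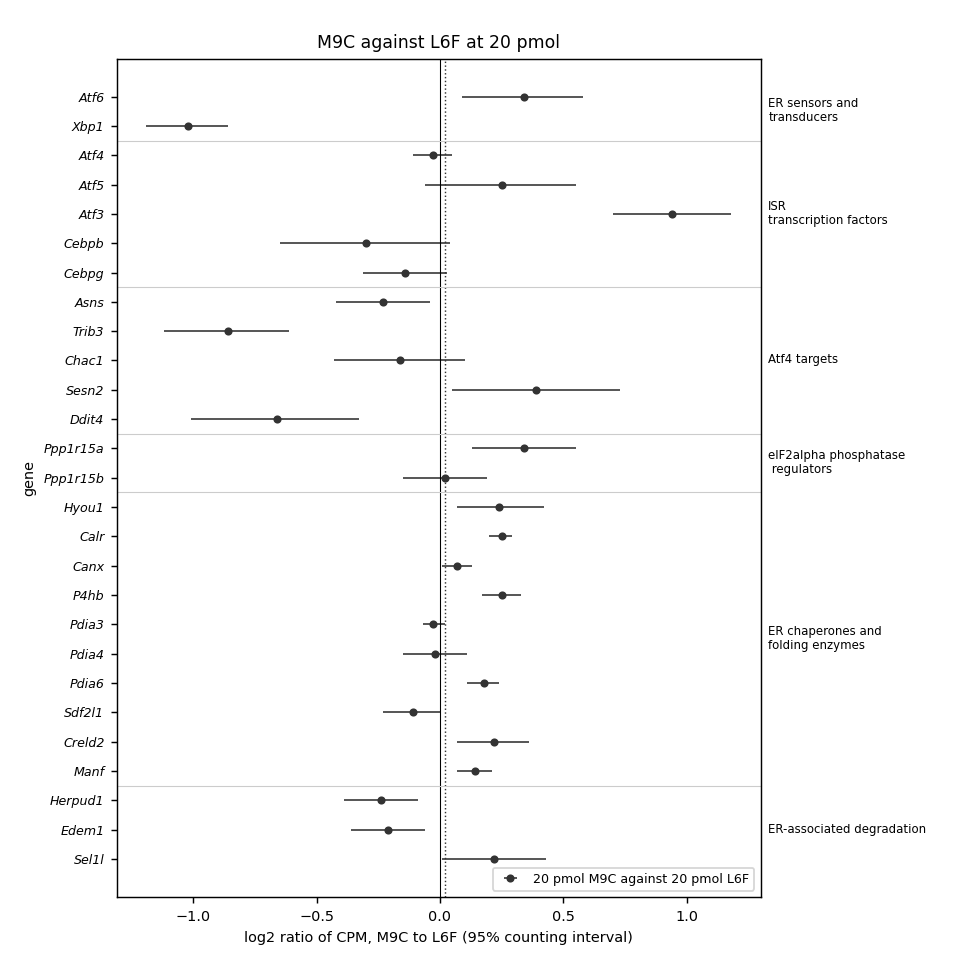
Log2 ratio of CPM in 20 pmol M9C against 20 pmol L6F cells for the 27 measured genes, by role, with 95% counting intervals. The dotted line is the median over all genes, 0.02. Atf3 lies highest and Xbp1, Trib3 and Ddit4 lowest, and Atf4 lies at 0.

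To set cells side by side at 1 depth, stimulated cells were thinned to 3000 UMIs each, a depth chosen after seeing the data, and shallower cells, 89 to 220 per culture, were left out. An Xbp1 UMI was then found in 9.31% (7.99 to 10.8), 10.2% and 12.1% (10.5 to 13.9) of cells with 20, 2 and 0.2 pmol M9C, against 15.2% (13.7 to 16.9) and 17.6% (16.0 to 19.2) with 80 and 20 pmol L6F. An Atf3 UMI was found in 7.54, 7.39 and 8.47% of cells at 20, 2 and 0.2 pmol M9C, and in 2.77% and 3.94% of L6F cells. For both genes the shares had the same direction as the CPM. The share intervals of Xbp1 at 0.2 pmol M9C and 80 pmol L6F overlapped, which does not show that these shares are equal. No interval of the difference between shares was computed. The CPM intervals of the same pair, 37.6 to 45.1 and 55.8 to 64.1, did not overlap. The variance over mean across thinned cells was 1.04 to 1.10 for Xbp1 and 1.01 to 1.16 for Atf3, near the 1.00 of pure counting. Free RNA in the droplets also gives UMIs, and no cell type here lacks these genes to measure it against.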

How the data were processed

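Each count is a UMI count per gene and cell barcode, as deposited by the authors, where the submitters' processing notes name bcl2fastq, Cell Ranger 6.0.1 and the build GRCm38 (mm10). How cells were called and which annotation was counted is not given in the sources used. The deposited matrix holds 13439 barcodes and no duplicated one.

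A barcode took the condition of its top hashtag, with at least 20 counts and 80% of its hashtag counts (11671 barcodes), the hashtags being tied to conditions by a deposited table. Barcodes with mixed hashtags were left out, so doublets within 1 condition stay. Cells under 500 genes or over 10% mitochondrial UMIs were dropped, which left 10600. Sums of UMIs over each culture's cells were scaled to CPM. Ratios have exact Clopper-Pearson intervals, CPM exact Poisson and shares exact binomial ones, at 95%, and PCR duplicates are collapsed by UMI. A count of 0 is given with the limit that 3 counts allow.

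On Poisson counts simulated from the levels of these samples (20 pmol M9C against rested, 6886 genes), the interval held the true ratio for 95.9% of unchanged genes. For 50 genes at each of 4 folds it held it for 98.0% at 1.5-fold, 94.0% at 2-fold, 100% at 3-fold and 96.0% at 4-fold. Poisson error is what the interval assumes, so this checks its calculation only. The draws held no variation between cells, hashtag calls or cultures. Alternatives used HTODemux (Seurat 5.3.0, R 4.3.3), edgeR 4.0.16 for TMM factors, and scipy 1.17.1 and numpy 2.4.6 in Python 3.11.15. Thinning used a fixed seed.

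The members, lists and comparisons were chosen with earlier results of these data known. All 32 members are named, and of the 2 lists of other pathway genes the 3 highest and 3 lowest by interval bound at 20 pmol M9C. Of the other genes, 3 were not matched to 1 row (Mars1, Mesdc2 and Ddit3) and are not analysed here. Gene and promoter sequences are from RefSeq, GRCm38.p6, and protein sequences were not used here. CD4 T, NK, neutrophil, platelet and plasma cell markers were also summed: CD4 at most 1.09 CPM, NK 8.71 CPM in rested cells, neutrophil at most 3.26, platelet at most 8.12 and plasma cell at most 4.84 CPM.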

Additional observations from a re-analysis of the deposited data

How the results depend on the processing

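No paired analysis was possible because each condition is 1 culture and the 2 deposited libraries hold the same cells. The members 2-fold above rested cells are given in the order 20, 2 and 0.2 pmol M9C, 80 and 20 pmol L6F, where the reported counts are 10, 10, 9, 5 and 7. They were 4, 6, 5, 3 and 5 with HTODemux, 1, 1, 1, 0 and 1 with hashtags at 50 counts and 95% (19 rested cells), 1, 1, 2, 0 and 1 with 1000 or more genes (47 rested cells), 25, 25, 26, 25 and 26 in UMIs per cell (all measured members, where 90.7 to 91.8% of all genes were higher), and 6, 5, 5, 2 and 3 of 11 to 13 at 50 CPM (17.5 to 21.8% of all genes). For L6F alone they were 9 and 11 with TMM, 8 at 80 pmol with median-of-ratios, and 14 and 16 at 1.5-fold. With 1000 or more genes 1 member was 2-fold lower at 20 and at 2 pmol M9C.

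Of the named log2 ratios to rested cells that passed 2-fold, these changed sign. Pdia4, lower in CPM and not past 2-fold, was higher in UMIs per cell, as were 90.7 to 91.8% of all genes. With 1000 or more genes they were -0.31, -0.27 and -0.31 for Atf6, -0.13 (20 pmol) and -0.17 (0.2 pmol) for Pdia6, -0.03 (20 pmol) and -0.01 (2 pmol) for Sdf2l1, all in M9C, and -0.34 and -0.20 for Xbp1 in L6F. With hashtags at 50 counts and 95% they were -0.22, -0.04 and -0.12 for Atf6 in M9C, and -0.27 and -0.15 for Xbp1 in L6F. There, 20 named ratios could not be given since a count was 0, and 7 with 1000 or more genes. One ratio to 20 pmol L6F in cells of 1000 to 3000 UMIs could not be given either.

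Between M9C doses, 1 member was lower from 0.2 to 2 pmol and 1 from 0.2 to 20 pmol in cells of 1000 to 3000 UMIs, in thinned cells and with no low filter, and past a ratio of 5 to 4 2 and 4, with 1 from 2 to 20 pmol. Between L6F doses, 0 were lower at 50 CPM and 3 past a ratio of 5 to 4. For M9C against L6F at 20 pmol, 0 were higher and 0 lower in cells of 1000 to 3000 UMIs, 2 and 1 in thinned cells, 0 and 1 at 50 CPM, and 4 were higher past a ratio of 5 to 4. The causes were not tested. The 918920 rested UMIs limit every ratio to rested cells.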
